A study of Mus musculus with 11 samples.

Results

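The urothelium and the early proximal tubule of the mouse fetal kidney and ureter were set against each other across the genome. Tissue came from wild-type CD-1 embryos, an outbred stock, at E15.5 (Theiler stage 23). The 3 urothelium samples hold the epithelium that lines the ureter, and the 3 early proximal tubule samples hold the first recognisable segment of the nephron tubule that reabsorbs filtered solutes. Samples of the ureteral smooth muscle (3) and the cortical collecting duct (2) completed the 11 arrays. All groups share 1 genotype and 1 age, no treatment is listed, and the labels list sex as unknown. Each sample was cut from frozen, stained sections by laser capture microdissection and pooled approximately 50 sections from 5 kidneys. Its total RNA went through 2 rounds of amplification before hybridisation. The series set out to profile single elements of the kidney, and this comparison asks which genes separate the lining of the outflow tract from the absorbing tubule.

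The members were all genes with 1 symbol in the annotation that could be measured, each read from the probe set with the highest mean over the 11 arrays and kept if it lay above the array median in at least 2 arrays. Of 18193 named genes on the array, 13614 passed and 4579 did not. Levels are deposited signals in linear intensity units. Differences are log2 fold changes of (signal + 55), urothelium minus early proximal tubule, so a positive value is higher in urothelium. The added 55 shrinks the fold change of a dim gene. Each difference is given with its standard error (SE) and a p-value from limma, adjusted by Benjamini-Hochberg over the 13614 genes. A gene was called where the adjusted p was under 0.05 and the log2 fold change was at least 1 in size. Nothing in the labels says that pools came from separate embryos, so the p-values describe only how far these pools differ among themselves, and part of that may be technical. Precision is limited by the number of arrays. An exact permutation test of 3 against 3 arrays cannot go below a two-sided p of 0.1. In tissue samples of this kind, fewer cells of a type and less RNA per cell cannot be told apart.

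The 2 epithelia arise from different lineages. The proximal tubule forms from the mesenchyme that condenses around the ureteric bud, under regulators that include Hnf4a, and it becomes an absorbing epithelium with a brush border, endocytic receptors and many solute carriers. The urothelium of the ureter, like the collecting duct, descends from the ureteric bud. It becomes a stratified barrier that holds Trp63 in its basal cells and lays down plaques of uroplakins on its surface, and its Shh signals to the surrounding mesenchyme, which becomes smooth muscle.

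The defining markers separated the 2 tissues, and some pools also held signal of markers of neighbouring tissue. The summed signal of 13 urothelium markers was 166982, 184429.8 and 64069 in the urothelium pools, against 2185, 3964 and 3831 in the early proximal tubule pools. The collecting duct pools had 80741 and 63569 for the same list, so it does not set urothelium pool 3 apart from the duct. For 12 early proximal tubule markers the sums were 13089.7, 3524 and 16444 in the urothelium pools, against 170214, 229485 and 183729 in the early proximal tubule pools. Urothelium pool 2 thus held the least tubule signal and pools 1 and 3 several times more. Markers of the tissue around the urothelium also had signal in the urothelium pools. The 7 smooth muscle markers summed to 63213, 38679 and 10189 in urothelium, against 4811, 2719.7 and 6154 in early proximal tubule and 285158, 260581 and 223196 in the ureteral smooth muscle pools themselves. Of those 7 markers, 4 were called higher in urothelium (Myocd, Actg2, Tagln and Acta2), and the mean sum in urothelium was 14.6% of that in muscle. Ureteral mesenchyme markers summed to 47099.8, 51331 and 33699 in urothelium, against 18139, 19179 and 19725 in early proximal tubule. The collecting duct pools had 36475 and 49579 for this list, within the range of the urothelium pools. Of its 7 members, 2 were called higher (Tbx18 and Tbx3), 5 had a positive fold change and 1 was lower at an unadjusted p under 0.05 by limma. Interstitium and matrix markers summed to 140478, 71753 and 122005 in urothelium, against 40616, 57929.8 and 62323 in early proximal tubule. The collecting duct pools had 50460 and 92406. Most of the urothelium sum was Col3a1, at 94024, 60702 and 77046. Of the 7 members, 1 was called higher (Dcn, 2.32, with 1 of its 2 probe sets kept at -0.42). A positive fold change was seen for 4, and 1 was lower at an unadjusted p under 0.05 by limma. Neither the mesenchyme nor the interstitium sum overlapped between urothelium and early proximal tubule. Loop and distal tubule markers stood out in 1 urothelium pool, with sums of 15262, 252 and 1339 in urothelium, against 1047, 2194 and 6148 in early proximal tubule. Slc12a1 alone had 12342 in urothelium pool 1, while Cldn16 of this list was called lower (-1.85). The collecting duct pools summed to 3867 and 11030. Podocyte markers were also uneven, with 3035, 914 and 11155 in urothelium, against 2080, 5411 and 10526 in early proximal tubule. Of the 15 tested markers of podocytes, nephron progenitors, endothelium, leukocytes and red cells, 0 were called by limma and 1, a red cell gene, had an unadjusted p under 0.05. The plot of marker sums shows 7 of the lists by array. Whether these signals came from neighbouring tissue or from the captured cells themselves was not tested, nor was their part in the results.

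**Figure D1:**
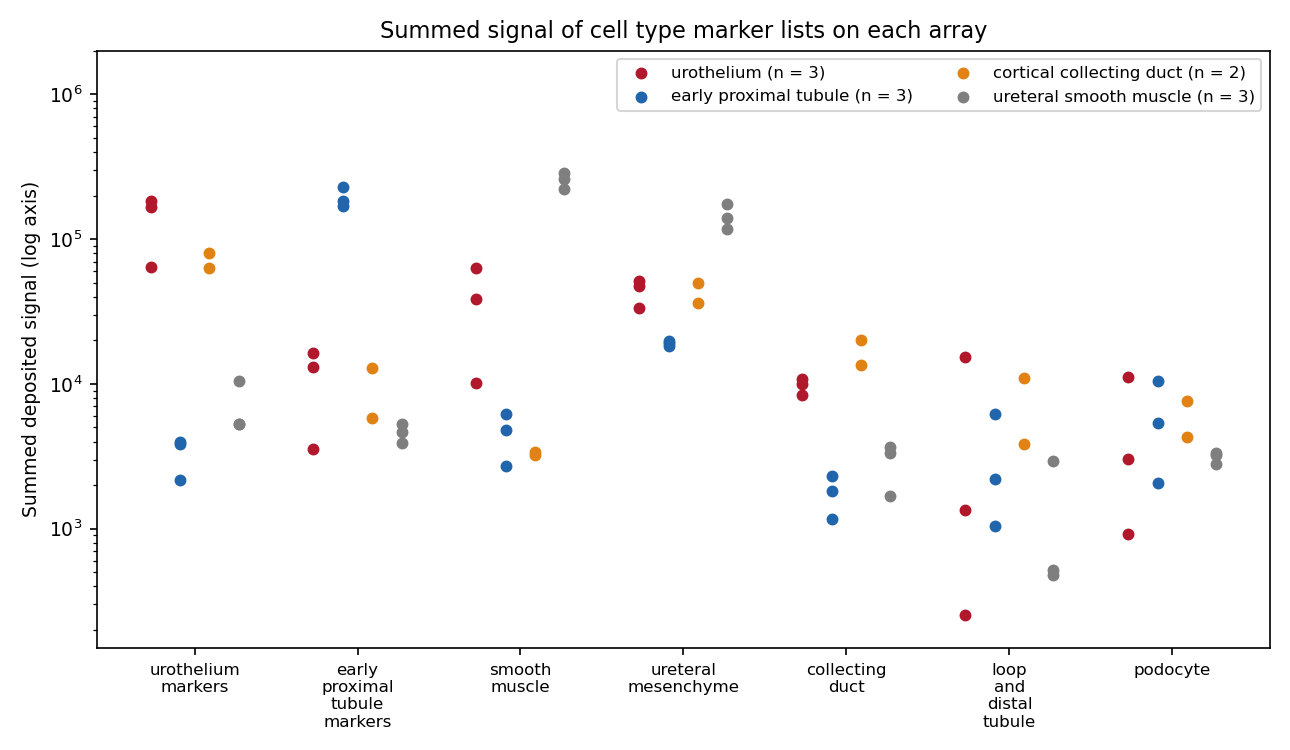
Summed deposited signal (log axis) of 7 marker lists on each of the 11 arrays; each point is 1 pool. Urothelium pools (red) exceed early proximal tubule pools (blue) for urothelium markers, and the reverse holds for early proximal tubule markers. A collecting duct pool (orange) reaches 80741 for urothelium markers, above 1 urothelium pool at 64069. Smooth muscle markers reach 63213 in urothelium, against at most 6154 in early proximal tubule.

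Pools of 1 compartment resembled each other more than pools of the 2 compartments. Across the 13614 genes, which are not independent replicates, Pearson r was 0.884 to 0.916 between urothelium pools and 0.888 to 0.933 between early proximal tubule pools, against 0.749 to 0.830 between a urothelium and an early proximal tubule pool. Urothelium was nearer to the collecting duct (0.832 to 0.909) than early proximal tubule was (0.788 to 0.847), and it was nearer to muscle as well (0.795 to 0.855, against 0.714 to 0.768 for early proximal tubule), as a description. The ratio of the 3' to the 5' Gapdh probe sets, a measure of how far amplification reached into the transcript, was 16.7, 55.3 and 29.7 in urothelium, against 10.5, 17.5 and 18.2 in early proximal tubule. The same ratio for actin ran the other way, at 6.66, 5.43 and 5.15 in urothelium, against 8.74, 13.5 and 7.35 in early proximal tubule. The part of either in the results was not tested.

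The comparison called 1560 of 13614 genes (11.5%). Of these, 683 (5.02% of all tested) were higher in urothelium and 877 (6.44%) were lower. The 3 urothelium arrays and the 3 early proximal tubule arrays did not overlap for 4239 genes (31.1%), among them 1547 of the 1560 called. Called genes differed by a median of 2.16 in size on the log2 scale, and the median over all genes was -0.03. The count leaned on single pools: without early proximal tubule pool 2 it was 899, and without urothelium pool 1 it was 1012. Without early proximal tubule pool 1 the genes called higher numbered 453.

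**Figure D2:**
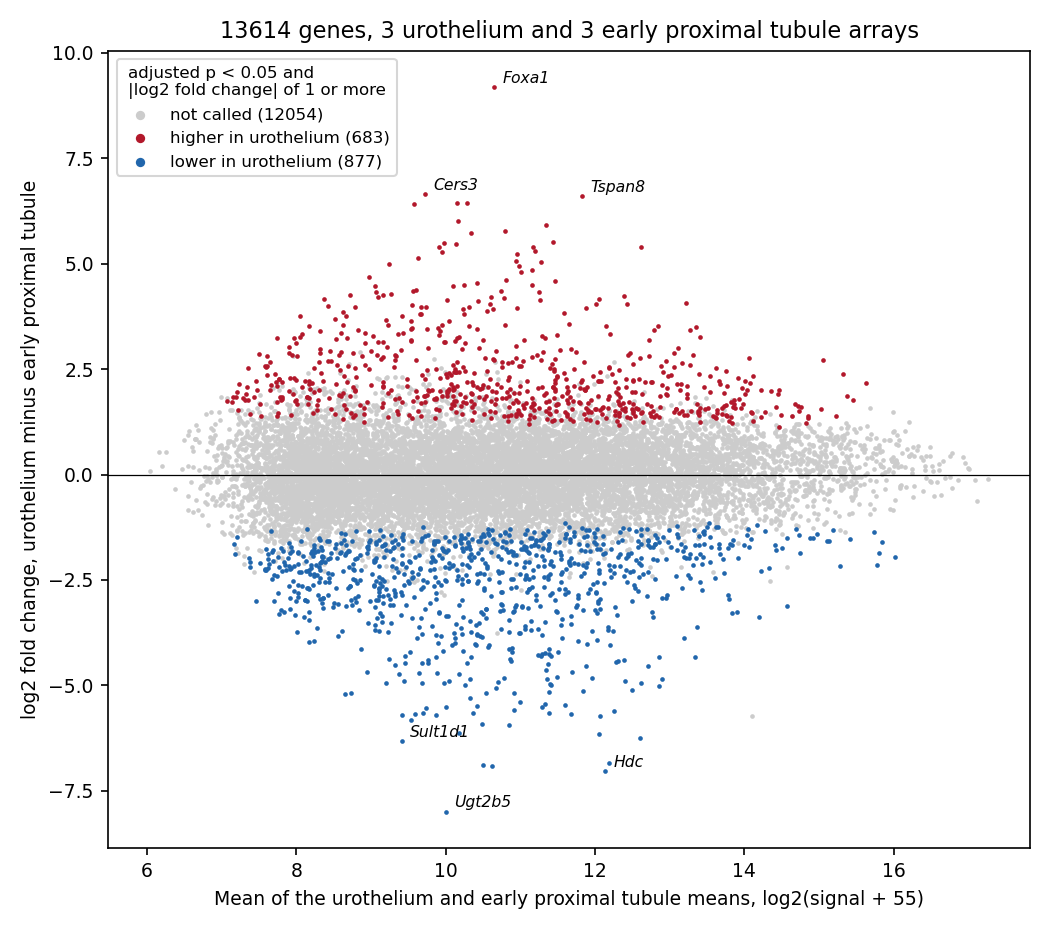
Log2 fold change (urothelium minus early proximal tubule) of 13614 genes against the mean of the 2 group means, log2(signal + 55); each point is 1 gene. Foxa1 stands at 9.19 and Ugt2b5 at -7.99, with 683 genes called higher (red) and 877 called lower (blue).

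The calls also depend on a batch in the labels. Sample titles and source names carry what looks like a date, not explained in the labels, and it splits the arrays into 4 label batches. Urothelium and early proximal tubule share none of them, so no within-batch value exists and the batch and the compartment cannot be told apart from these 6 arrays alone. A fit with the batch as a fixed block can only reach the difference through the muscle and collecting duct arrays. That fit called 24 genes, 11 higher and 13 lower in urothelium, and all 24 were also called without the block. It kept the sign of 1552 of the 1560 called genes, with a median size of 2.07 on the log2 scale, but the median SE over all genes was 0.87 with the block and 0.47 without it. Of the genes named here, those that stayed called are Foxa1, Cers3, Krt19, Anxa1 and Dsc2, higher in urothelium, and Ugt2b5, Slc17a1, Spp2, Slc22a22, Ambp, Kl, Slc23a1 and Acaa1b, lower in urothelium. The remaining 11 were chosen after their values were seen: 1700110I01Rik, Edaradd, Frk, Efemp1, Rab27b and Apela were higher, and Afm, Mfsd4b1, Mettl7b, Prkcq and Sigirr were lower. Every other call of a gene named below was lost in that fit, and the list counts shrank to the few that it kept. The plot of fold changes shows both estimates. Where the block moved a named fold change by over 1.5 times, the value with the block stands beside it.

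**Figure D3:**
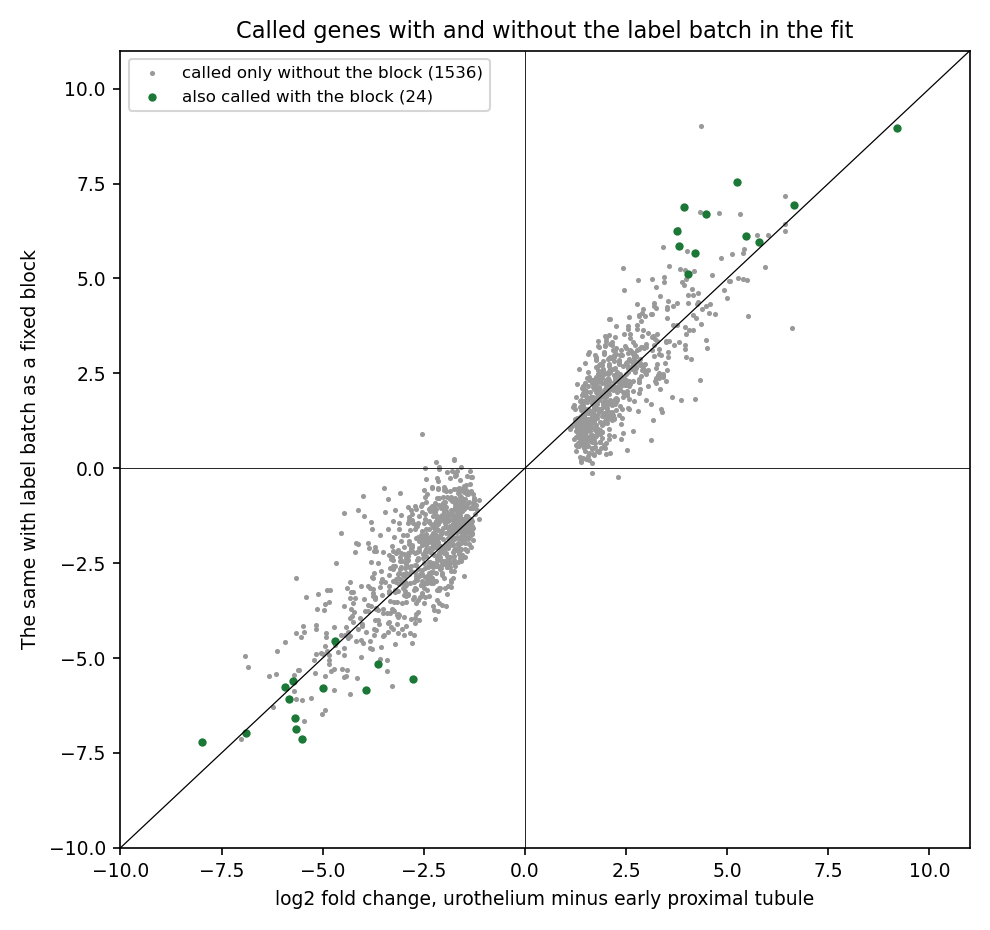
Log2 fold change (urothelium minus early proximal tubule) of the 1560 called genes, without the label batch (x axis) and with it as a fixed block (y axis); the diagonal marks equal values. Points scatter about the diagonal and 1552 keep their sign, while 24 (green) were also called with the block.

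The 12 highest and 12 lowest genes were chosen among called genes without overlap between the groups, so that separation is no result for them. The gene with the highest fold change in urothelium was Foxa1, a pioneer transcription factor of endodermal and urogenital epithelia. Its signal was 40706, 65896 and 21839 in the urothelium pools, against 11.6, 12.4 and 10.4 in the early proximal tubule pools, and 8511 and 10835 in the collecting duct pools and 3365, 1539 and 1286 in the muscle pools. All 3 early proximal tubule values were below the constant of 55, while the lowest urothelium value was far above it. The log2 fold change was 9.19 ± 0.47 (SE), a 585-fold difference on the (signal + 55) scale, with an adjusted p of 4.3e-07 by limma. With the label batch as a block it was 8.97 (adjusted p = 0.037).

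Next came Cers3, which makes ceramides with very long acyl chains, with 10173, 12088 and 4768 in the urothelium pools, against 70.3, 19.3 and 9.02 in the early proximal tubule pools. Sptssb, a small subunit that activates serine palmitoyltransferase and so acts at the start of the same sphingolipid route, had 6204, 10796 and 5125 in the urothelium pools, against 19, 62.4 and 9.44 in the early proximal tubule pools. The log2 fold changes were 6.65 ± 0.52 (SE, adjusted p = 1.3e-05) for Cers3 and 6.42 ± 0.56 (SE, adjusted p = 2.3e-05) for Sptssb, both by limma. They parted in the collecting duct, where Cers3 had 2771 and 2301 and Sptssb had 65.1 and 148.

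Trp63, the p53-family factor of basal cells in stratified epithelia, read 23699, 11858 and 5516 in the urothelium pools, against 24.1, 378 and 16.1 in the early proximal tubule pools. One early proximal tubule pool stood above the other 2, and the log2 fold change was 6.43 ± 1.01 (SE, adjusted p = 0.0012 by limma). S100a6, a small calcium-binding protein, had 14533, 47559 and 12068 in the urothelium pools, against 279, 266 and 292 in the early proximal tubule pools. The tubule values lay within a narrow band and the log2 fold change was 5.93 ± 0.49 (SE, adjusted p = 1.6e-05 by limma).

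The other leading genes were surface and junction proteins. Tspan8, a tetraspanin of epithelial membranes, had 45065, 39044 and 26327 in the urothelium pools, against 190.2, 525 and 298 in the early proximal tubule pools. Cldn8, a claudin that tightens the junctions of the distal nephron and collecting duct, had 8777, 11377 and 11573 in the urothelium pools, against 4.43, 390.2 and 13.4 in the early proximal tubule pools, and Plet1, an epithelial surface protein, had 6506, 10059 and 4589.6 in the urothelium pools, against 15.3, 215 and 121 in the early proximal tubule pools. Their log2 fold changes were 6.61 (3.69 with the label batch as a block), 6.44 and 5.50, with another Plet1 probe set at 0.59. These 3 genes and Fam241a (5.52) were also bright in the collecting duct, with signals of 26115 and 25894 for Tspan8, 16845 and 25236 for Cldn8, 13252 and 4963 for Plet1 and 12552 and 18654 for Fam241a. By contrast, Trp63 read 100.1 and 1256 there. The plot of leading genes shows both patterns.

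**Figure D4:**
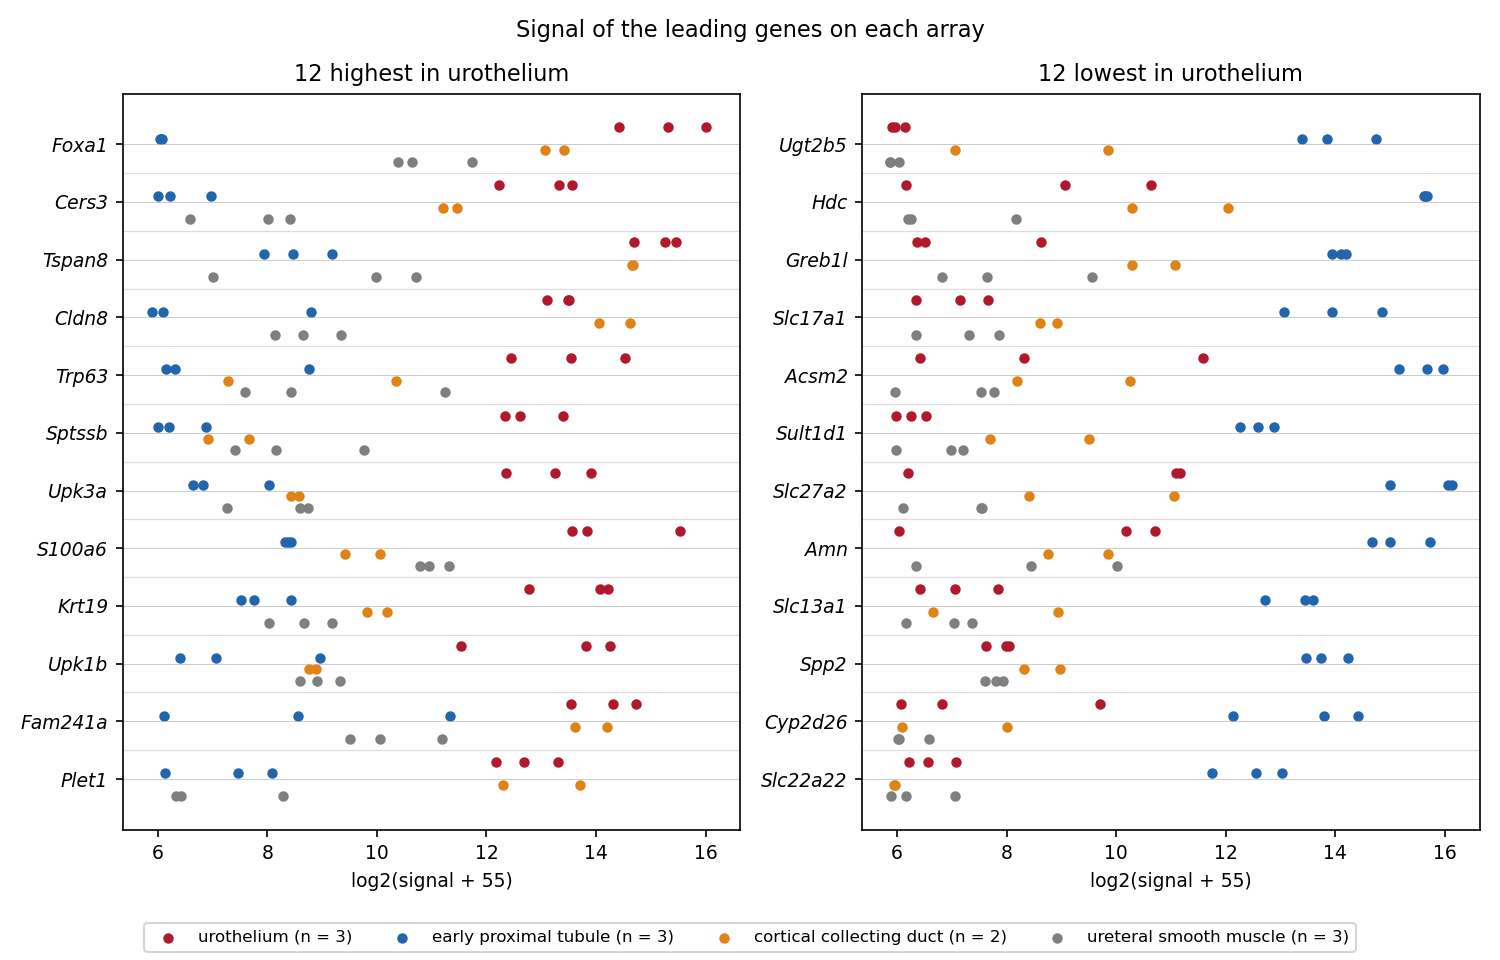
Log2(signal + 55) on each array for the 12 called genes with the highest (left) and the 12 with the lowest (right) fold change in urothelium; each point is 1 pool. The 24 genes were chosen among those without overlap between urothelium (red) and early proximal tubule (blue). Collecting duct (orange) lies near urothelium for Tspan8, Cldn8, Fam241a and Plet1 but near early proximal tubule for Sptssb and Upk3a.

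Uroplakins, the proteins of the apical plaques of urothelium, were higher in urothelium for most members measured. Of 5 tested, 3 were called higher in urothelium and 0 lower, and the list median was 3.67 against -0.03 for all genes. Upk3a had 15393, 9639 and 5191 in the urothelium pools, against 206, 58.8 and 45.3 in the early proximal tubule pools. Its log2 fold change was 6.0 ± 0.54 (SE, adjusted p = 2.7e-05 by limma). Upk1b, a tetraspanin partner of Upk3a, had 19536, 14321 and 2930.1 in the urothelium pools, against 78, 29.5 and 446 in the early proximal tubule pools, and its log2 fold change was 5.73 ± 0.71 (SE, adjusted p = 0.00022 by limma). Upk3b differed by 3.67 (adjusted p = 0.001 by limma). Upk2 missed the threshold at 2.00 (adjusted p = 0.063 by limma), and its sign turned with the label batch as a block (-0.20), with 806, 790.4 and 629.9 in the urothelium pools, against 109, 43.9 and 429.9 in the early proximal tubule pools, and Upk3bl missed it at 1.66 (adjusted p = 0.089 by limma). Upk1a did not pass the filter on low values, with 125, 130.3 and 228 in the urothelium pools, against 97.3, 121 and 355 in the early proximal tubule pools. Urothelium pool 3 was the lowest of the 3 for each of the 3 called uroplakins and for the summed urothelium markers.

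Basal and luminal keratins were called higher in urothelium for 5 of 8 tested, with 0 lower and a list median of 2.78. Krt19 had 17113, 19068 and 6954 in the urothelium pools, against 163, 291 and 129 in the early proximal tubule pools. Its log2 fold change was 5.78 ± 0.47 (SE, adjusted p = 1.6e-05 by limma). Krt7, Krt18, Krt23 and Krt8 differed by 4.32, 4.07, 3.40 and 2.17, and with the block Krt7 stood at 2.33, Krt23 at 1.48 and Krt8 at 1.40. Krt8 was abundant in both tissues, at 107230, 153492 and 75543 in the urothelium pools, against 18890.5, 32988 and 21652 in the early proximal tubule pools. Krt5, the keratin of mature basal cells, had 839, 572 and 439 in the urothelium pools, against 414, 248 and 633 in the early proximal tubule pools, which overlapped, and its log2 fold change of 0.50 was not called (adjusted p = 0.52 by limma). In the whole keratin family the same 5 of 22 tested members were called, with a median of 0.16. Krt19 was the only keratin called with the label batch in the fit.

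Transcription factors of urothelium and the ureteric duct were higher in urothelium as a group: 12 of 18 tested were called higher and 0 lower, with a median of 2.60. Besides Foxa1 and Trp63, Gata3, which is needed for ureteric bud outgrowth, had 10616, 25659.8 and 6656 in the urothelium pools, against 60.4, 985 and 579 in the early proximal tubule pools and a log2 fold change of 4.85 ± 0.70 (SE, adjusted p = 0.00059 by limma). Grhl2 and Grhl3, grainyhead factors of epithelial barriers, differed by 4.19 and 3.18. Klf5 and Ehf, factors of epithelial differentiation, differed by 3.97 and 3.82. For Grhl2, 1 of its 3 probe sets kept pointed the other way, at -0.49. Outside the list, Foxq1, a forkhead factor, had 15075, 29584 and 7231 in the urothelium pools, against 165, 864 and 205 in the early proximal tubule pools (5.31 ± 0.63, SE, adjusted p = 0.00017 by limma), and Prdm16, a zinc finger regulator, differed by 3.54. The label batch as a block left Foxa1 alone of this list called.

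Some of these regulators were shared with the collecting duct and some with the muscle. Gata3 read 20578 and 15543 and Ehf 34075 and 29544 in the collecting duct, within or above the range of the urothelium pools. Tbx3 and Tbx18, T-box factors known from the ureteral mesenchyme, differed by 4.04 and 4.15. Tbx3 in the collecting duct (18268 and 13272) lay within the range of the urothelium pools (15672, 32302 and 9343), with 9420.1, 9932 and 8687 in muscle. Tbx18 had 5561, 5168 and 2815 in the urothelium pools, against 419, 246 and 50 in the early proximal tubule pools, but 46844, 67444 and 57069.8 in the smooth muscle pools. Gata5, a zinc finger factor of mesodermal tissues, was likewise brightest in muscle, at 2462, 2227 and 2818, with 590.4, 932 and 372 in the urothelium pools, against 38.2, 26.6 and 35.9 in the early proximal tubule pools. These muscle levels stand beside the summed muscle markers of the urothelium pools, and their part in the differences was not tested.

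Genes of the ureteric bud, the lineage of both urothelium and collecting duct, were partly higher in urothelium. Of 13 ureteric bud genes tested, 6 were called higher and 0 lower (median 1.5). Shh, the ligand that patterns the ureteral mesenchyme, had 10667, 19992 and 5979 in the urothelium pools, against 384, 1109 and 63.1 in the early proximal tubule pools, and 42907 and 31167 in the collecting duct. All urothelium values exceeded all tubule values, and the log2 fold change was 4.80 ± 0.83 (SE, adjusted p = 0.0023 by limma). Shh was the only one of 14 hedgehog pathway genes called. Gfra1, the co-receptor of GDNF at the bud tip, differed by 2.02 (1.29 with the block), Sox9, a factor of bud tips, by 1.77 (2.66 with the block), Etv5, a target of GDNF signalling, by 1.69 and Wnt7b, a duct ligand, by 1.5. For Etv5 the groups overlapped, with 1210 in urothelium pool 2 and 1293 in early proximal tubule pool 3.

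In the Wnt list, 5 of 35 tested genes were called higher and 3 lower (5.02% and 6.44% over all genes), with a median of 0.11. The 5 were the ligands Wnt4, Wnt10a and Wnt7b and the secreted modulators Dkk3 and Sfrp2. Wnt4, known in the kidney for driving mesenchyme into epithelium, had 5969, 6795 and 6324 in the urothelium pools, against 293, 674 and 1312 in the early proximal tubule pools and a log2 fold change of 3.19 ± 0.62 (SE, adjusted p = 0.0046 by limma). The 3 lower genes were the receptors Fzd5 (-2.04) and Lrp6 (-1.42, or -0.63 with the block, and 1 of its 2 probe sets kept at 0.25) and the antagonist Frzb (-3.39). Sfrp2 differed by 1.98, or 1.25 with the block. Dkk3 and Sfrp2 were brightest in smooth muscle, at 44586, 60454 and 69764 for Dkk3 and 255462, 128519.6 and 119885 for Sfrp2.

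Retinoic acid genes were called higher for 3 of 15 and lower for 0, with a median of 0.42. Aldh1a3, which makes retinoic acid, had 703, 248 and 1348 in the urothelium pools, against 38.6, 107 and 5.49 in the early proximal tubule pools, against the far brighter 10965 and 17114 of the collecting duct, and differed by 2.82. Crabp2, a binding protein that carries retinoic acid, differed by 2.61, and the receptor Rxra by 1.66, although 1 of the 2 Rxra probe sets kept stood at -0.88. BMP and TGF-beta genes were called higher for 5 of 33 and lower for 0 (median 0.75): the BMP-responsive factors Msx2 (3.96), Id1 (2.19), Id3 (2.08) and Id4 (1.96), and the co-receptor Tgfbr3 (2.00, with 1 of its 2 probe sets kept at -0.56). At an unadjusted p under 0.05 by limma, 2 of the 33 were lower. Id4 and Tgfbr3 had their highest mean in muscle, at 112653, 71612 and 67930 for Id4 and 11440, 16197 and 12328 for Tgfbr3.

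Smaller signalling lists gave few calls, some near the shares over all genes tested (5.02% higher, 6.44% lower). Of 12 EGF family genes, 2 were higher: the ligand Btc (1.64) and the feedback inhibitor Errfi1 (2.18, with 1 of its 2 probe sets kept at -0.05). Of 20 Notch genes, the ligand Jag2 was higher (2.48), while the ligand Dll1 (-2.94) and the modifying enzyme Rfng (-1.32) were lower. FGF genes were called lower for 3 of 18, the receptors Fgfr4 and Fgfr3 and the co-receptor Kl, and higher for 1, Etv5. Fgfr3 differed by -1.99, or -1.05 with the block. Kl, or Klotho, which lets receptors bind FGF23, had 95, 142 and 63.6 in the urothelium pools, against 9202, 7745 and 4579 in the early proximal tubule pools, and the groups were far apart. Its log2 fold change was -5.51 ± 0.48 (SE, adjusted p = 2.3e-05 by limma), and -7.12 with the label batch as a block (adjusted p = 0.037). Prostaglandin, endothelin and purine genes were called higher for 3 of 14 (Ptger4, Ptger2 and Ptges) and lower for 1 (Nt5e, at -1.39, or -0.88 with the block), and Ptger4 was brightest in muscle, at 14905, 19223 and 9924. Ptger2 was uneven in muscle, at 172, 1584 and 3213, against 579, 248 and 553 in the urothelium pools.

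Junction and surface genes of the barrier were higher in urothelium in part. Claudins divided evenly, with 4 of 16 called higher and 4 lower. The 4 higher were Cldn8, Cldn23 (4.04), Cldn3 (3.44) and Cldn4 (3.30). The 4 lower were Cldn2 (-4.41), which forms cation pores in the proximal tubule, Cldn10 (-3.29), Cldn1 (-2.58) and Cldn16 (-1.85). Cldn2 had 2754, 296 and 1281 in the urothelium pools, against 39980.5, 21380.02 and 14788 in the early proximal tubule pools, and urothelium pool 2 was again the lowest.

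Of 17 genes of epithelial adhesion and splicing, 4 were called higher and 2 lower (median 0.96). Esrp1, an epithelial splicing regulator, had 18099, 15429.7 and 9248 in the urothelium pools, against 513, 612 and 446 in the early proximal tubule pools, with no overlap and a log2 fold change of 4.58 ± 0.43 (SE, adjusted p = 3.7e-05 by limma). E-cadherin (Cdh1) differed by 2.28 and Mal2 by 3.93. The protease St14 differed by 2.31 in this fit but by -0.22 with the label batch as a block, the only call of a named gene that turned its direction. The 2 lower genes were Cdh16, the kidney-specific cadherin, at -1.66, and Cdh6, the cadherin of early proximal precursors, at -4.40. Desmosome and hemidesmosome genes were called higher for 3 of 15 (median 0.87), with 2 lower at an unadjusted p under 0.05: Dsc2 (3.93, or 6.90 with the block), Lamb3 (3.13) and Ppl (2.02).

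Annexins and S100 proteins, calcium-dependent membrane and signalling proteins, were called higher for 8 of 20 and lower for 1, with a median of 1.60. Anxa1 had 19240.5, 31006 and 18801 in the urothelium pools, against 739.6, 1613 and 1854 in the early proximal tubule pools, and its log2 fold change was 4.04 ± 0.43 (SE, adjusted p = 8.1e-05 by limma). Anxa8, Anxa3 and Anxa2 differed by 4.48, 3.24 and 2.88. Anxa13 alone was lower, at -3.64. Tetraspanins were called higher for 5 of 23 and lower for 1, Tspan18 (-3.23).

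Collecting duct transport genes were called higher for 4 of 14 and lower for 1 (median 0.79). Scnn1g, the gamma subunit of the epithelial sodium channel, had 5993, 7164 and 5330.4 in the urothelium pools, against 15, 529 and 42.9 in the early proximal tubule pools, and 7739 and 5089 in the collecting duct. The log2 fold change was 5.28 ± 0.64 (SE, adjusted p = 0.00019 by limma). The subunit Scnn1b (1.35), the water channel Aqp3 (2.20, or 0.86 with the block) and the pump regulator Fxyd4 (1.95) were the other 3. Slc26a4, the anion exchanger pendrin, was lower at -2.96.

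Other lists with calls towards urothelium were cell cycle genes (4 of 29 higher) and immediate early and heat shock genes (4 of 19). Over all genes, 5.02% were called higher and 6.44% lower. The cell cycle genes were the cyclins Ccnd2 (3.49, or 2.29 with the block), Ccnd1 (1.45) and Ccne1 (1.42, or 0.66 with the block), and Pcna (1.91). Ccnd1 was brightest in muscle, at 40461, 34488 and 27336, against 18111, 12095 and 24897 in the urothelium pools. Fos, an immediate early gene that responds quickly to growth and stress signals, had 2665, 6324 and 839 in the urothelium pools, against 44.4, 23.4 and 129 in the early proximal tubule pools, and 63.2 and 28.1 in the collecting duct. It was higher in every urothelium pool than on any of the other 8 arrays, with a log2 fold change of 4.47 ± 0.64 (SE, adjusted p = 0.00058 by limma). Imprinted genes were called higher for 2 of 14, Igf2 (1.76) and Ndn (1.33). Ndn was brightest in muscle, at 96456, 72089 and 61108. Of 34 respiratory chain genes, 0 were called by limma, with a median of 0.10, and at an unadjusted p under 0.05 there was 1 higher and 1 lower. Hox genes were called higher for 3 of 26 (Hoxd8 at 3.33, Hoxd13 at 2.18 and Hoxd9 at 2.07) and lower for 1 (Hoxa2 at -2.61), and Hoxd13, the most posterior of the cluster, was brightest in muscle at 1526, 3246 and 2245.

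On the tubule side, the gene with the lowest fold change was Ugt2b5, a glucuronosyltransferase that conjugates steroids and drugs. Its signal was 5.32, 7.08 and 15.3 in the urothelium pools, against 14619.9, 27496 and 10743 in the early proximal tubule pools. All urothelium values were below the constant of 55, and the log2 fold change was -7.99 ± 0.59 (SE, adjusted p = 1.3e-05 by limma), a 255-fold difference on the (signal + 55) scale. With the label batch as a block it was -7.21 (adjusted p = 0.045). Signals of its close relatives Ugt2b37 (-5.70) and Ugt2b38 (-3.03) may not be separable, since near-identical copies can share probes.

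Hdc, which makes histamine, had 1544, 16.5 and 479 in the urothelium pools, against 52469, 50551 and 50533 in the early proximal tubule pools. The tubule pools were nearly equal, whereas the urothelium pools spread widely, with pool 2 below the constant of 55, and the log2 fold change was -7.02 ± 0.91 (SE, adjusted p = 0.00029 by limma). Greb1l, a gene required for kidney formation, had 27.3, 36.2 and 342 in the urothelium pools, against 18766, 15581 and 17595 in the early proximal tubule pools and differed by -6.91 ± 0.69 (SE, adjusted p = 5.2e-05 by limma). Acsm2, a medium-chain acyl-CoA synthetase, had 264, 30.8 and 2997 in the urothelium pools, against 52342, 64297 and 36799 in the early proximal tubule pools, and its urothelium values again ran lowest in pool 2. Amn, the partner that anchors cubilin, and Slc27a2, which imports and activates very long fatty acids, showed the same spread, with 1109, 10.5 and 1624 for Amn and 2139, 18.6 and 2243 for Slc27a2 in the urothelium pools. Over the 877 genes called lower, pool 2 was the lowest urothelium array for 407, pool 1 for 305 and pool 3 for 165.

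Sugar, phosphate and sulfate transporters were called lower in urothelium for 17 of 22 and higher for 0, with a median of -3.49. Slc17a1, a phosphate and urate transporter, had 26.3, 87.1 and 148 in the urothelium pools, against 15688, 29404 and 8489.5 in the early proximal tubule pools. Its log2 fold change was -6.90 ± 0.54 (SE, adjusted p = 1.3e-05 by limma). The sodium-sulfate carrier Slc13a1 (-6.14), the sodium-phosphate carriers Slc34a1 (-4.28) and Slc34a3 (-4.37), and the sodium-glucose carrier Slc5a2 (-4.03) belonged to the same group. Slc5a2, or SGLT2, which recovers most filtered glucose, read 195, 559.8 and 299 in the urothelium pools, against 3810.2, 9465 and 6428 in the early proximal tubule pools.

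Amino acid transporters were called lower for 13 of 22 and higher for 0 (median -2.25). Slc3a1 and Slc7a9, the 2 chains of the cystine transporter, differed by -5.17 ± 0.47 and -5.62 ± 0.67 (SE, adjusted p of 3.2e-05 and 0.00018 by limma). Slc7a9 had 546, 270.5 and 1673 in the urothelium pools, against 24516, 38778 and 41683 in the early proximal tubule pools. The sodium-coupled carriers Slc6a18, Slc6a20a, Slc6a20b and Slc6a13 differed by -4.73, -3.70, -4.93 and -4.32. Organic ion transporters were called lower for 15 of 20 and higher for 0 (median -2.85). Slc22a22, which carries prostaglandins, had 40, 19.7 and 79 in the urothelium pools, against 3399.6, 5923 and 8309 in the early proximal tubule pools and a log2 fold change of -5.82 ± 0.45 (SE, adjusted p = 1.3e-05 by limma). The cation carrier Slc22a2 (-5.70) and the anion carriers Slc22a6 (-4.95), Slc22a19 (-4.93) and Slco1a6 (-5.41, or -3.40 with the block) went with it.

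Across the whole solute carrier family, 71 of 256 tested members were called lower and 7 higher, with a median of -0.69. Slc23a1, the vitamin C carrier, was among the lower (247, 362 and 845 in the urothelium pools, against 17475, 13822 and 15017 in the early proximal tubule pools), and it stayed called with the label batch as a block (-5.80). Among the 7 higher were the monocarboxylate carrier Slc16a7 (4.11), the choline carrier Slc44a2 (2.60), the amino acid carriers Slc7a1 (2.09) and Slc38a4 (1.88), and the mitochondrial Slc25a24 (2.49). For Slc44a2 and Slc7a1, 1 of 3 probe sets kept pointed the other way.

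Brush border and endocytosis genes were called lower for 19 of 23 and higher for 0, with a median of -2.94. The endocytic receptors Lrp2 (megalin) and Cubn (cubilin) had 4939, 189 and 741 in the urothelium pools, against 21579, 31776 and 37762 in the early proximal tubule pools for Lrp2 and 1414, 1280.2 and 1052 in the urothelium pools, against 14214, 23623 and 13432 in the early proximal tubule pools for Cubn. Their log2 fold changes were -4.90 ± 0.92 and -3.68 ± 0.48 (SE, adjusted p of 0.0036 and 0.00029 by limma), and with the block Cubn stood at -2.19. Vil1 (villin), which bundles actin in microvilli, read 488, 6.52 and 790.2 in the urothelium pools, against 8809.7, 9361 and 9129 in the early proximal tubule pools, and the protocadherin Cdhr2, the peptidase Mep1a and the scaffold Pdzk1 differed by -4.71, -4.83 and -3.26. Of the whole list, 0 were called with the label batch as a block, while all 19 kept their sign.

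Metabolic genes of the tubule were lower in urothelium as well. Gluconeogenesis and fructose genes were called lower for 7 of 10 (median -2.55), with Pck1 at -3.98 and Fbp1 at -4.32. Pck1, the committed step of gluconeogenesis, had 37.7, 9.97 and 8.66 in the urothelium pools, against 783, 1546 and 1069.7 in the early proximal tubule pools. Amine and amino acid metabolism was called lower for 17 of 28 and higher for 0 (median -2.54), with Prodh2 (-5.21), which degrades hydroxyproline, Glyat (-4.84), which conjugates glycine, and Dmgdh (-3.71), of choline breakdown.

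Drug and steroid enzymes were called lower for 13 of 24 and higher for 1, the glutathione transferase Gsta4 (2.57), with a median of -1.87. Cyp2j5 (-5.19) and Cyp2d26 (-5.92) led the cytochromes P450, of which 9 of 33 were lower and 0 higher. Fatty acid oxidation and peroxisome genes were called lower for 7 of 31 and higher for 1, with a median of -0.15. The 1 higher was Acaa2, a mitochondrial thiolase, with 22654, 14244 and 10154 in the urothelium pools, against 2080.4, 1589 and 2539 in the early proximal tubule pools, while its peroxisomal relative Acaa1b had 3336, 2782 and 2772 in the urothelium pools, against 32611, 47826 and 32549 in the early proximal tubule pools. Neither pair overlapped, and the log2 fold changes were 2.84 ± 0.41 and -3.62 ± 0.49 (SE, adjusted p of 0.00068 and 0.00038 by limma). Acaa2 in muscle (26790, 14691 and 21728) overlapped the urothelium pools and had a higher mean. Glycolysis was called higher for 2 of 15, Hk1 (1.78) and Pkm (1.67), and lower for 1, Pfkp (-1.40, or -0.91 with the block).

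Carbonic anhydrases, which feed bicarbonate recovery, were called lower for 4 of 12 (Car12 at -4.08, Car4 at -3.75, Car14 at -3.01 and Car2 at -2.78) and higher for 1, Car3. Car3 had 20741, 25178 and 6337 in the urothelium pools, against 599, 355 and 111 in the early proximal tubule pools, but 104316, 110596 and 123450.4 in muscle, and 1 of its 4 probe sets kept stood at -0.56. Plasma protein genes were called lower for 4 of 14 and higher for 0 (1 at an unadjusted p under 0.05): Spp2 (-5.93), Ambp (-5.67), Afp (-3.29, or -5.72 with the block) and Apom (-1.98). Spp2, a secreted phosphoprotein, had 142, 208 and 198 in the urothelium pools, against 11253, 19227 and 13687 in the early proximal tubule pools, the smallest adjusted p among the tubule genes named (2.8e-06 by limma). One of the 4 Afp probe sets kept stood at 0.44. Integrins and laminins were called lower for 4 of 30 (Itga5, Lama1, Itgb6 and Itga1) and higher for 1, Lamb3. The shares over all genes were 6.44% lower and 5.02% higher. Of the 3 Itga5 probe sets kept, 1 stood at 1.17. Lama1, of the tubule basement membrane, had 452, 622 and 5084 in the urothelium pools, against 7924, 8716 and 19573 in the early proximal tubule pools, and urothelium pool 3 was by far the highest of its group.

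Proximal tubule transcription factors were called lower in urothelium for 10 of 14 and higher for 0, with a median of -1.97. Hnf4a, the nuclear receptor that drives proximal tubule maturation, had 2164, 101 and 4132 in the urothelium pools, against 38942, 37589 and 28464 in the early proximal tubule pools. Its urothelium values spread widely and stayed below every tubule value, with a log2 fold change of -4.94 ± 0.87 (SE, adjusted p = 0.0024 by limma). Esrrg, a receptor of oxidative metabolism, differed by -4.54 (-1.70 with the block), Tfec by -4.18 (-1.97 with the block), the bile acid receptor Nr1h4 by -3.51 and Hnf4g by -2.75. Outside the list, the vitamin D receptor Vdr (-2.69) and the Krüppel-like factors Klf15 (-4.18) and Klf9 (-2.79, or -1.20 with the block) were also lower. In the transcription factor family as a whole, 35 of 312 were called higher and 23 lower (5.02% and 6.44% over all genes), with a median of 0.04. In the lists of amino acid transporters, sugar, phosphate and sulfate transporters, organic ion transporters, brush border, gluconeogenesis, amino acid metabolism and proximal tubule factors, 0 members were higher even at an unadjusted p under 0.05, and in the lists of uroplakins, keratins, duct factors, ureteric bud, hedgehog and retinoic acid genes 0 were lower. The plot of lists sets these shares beside those of all genes.

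**Figure D5:**
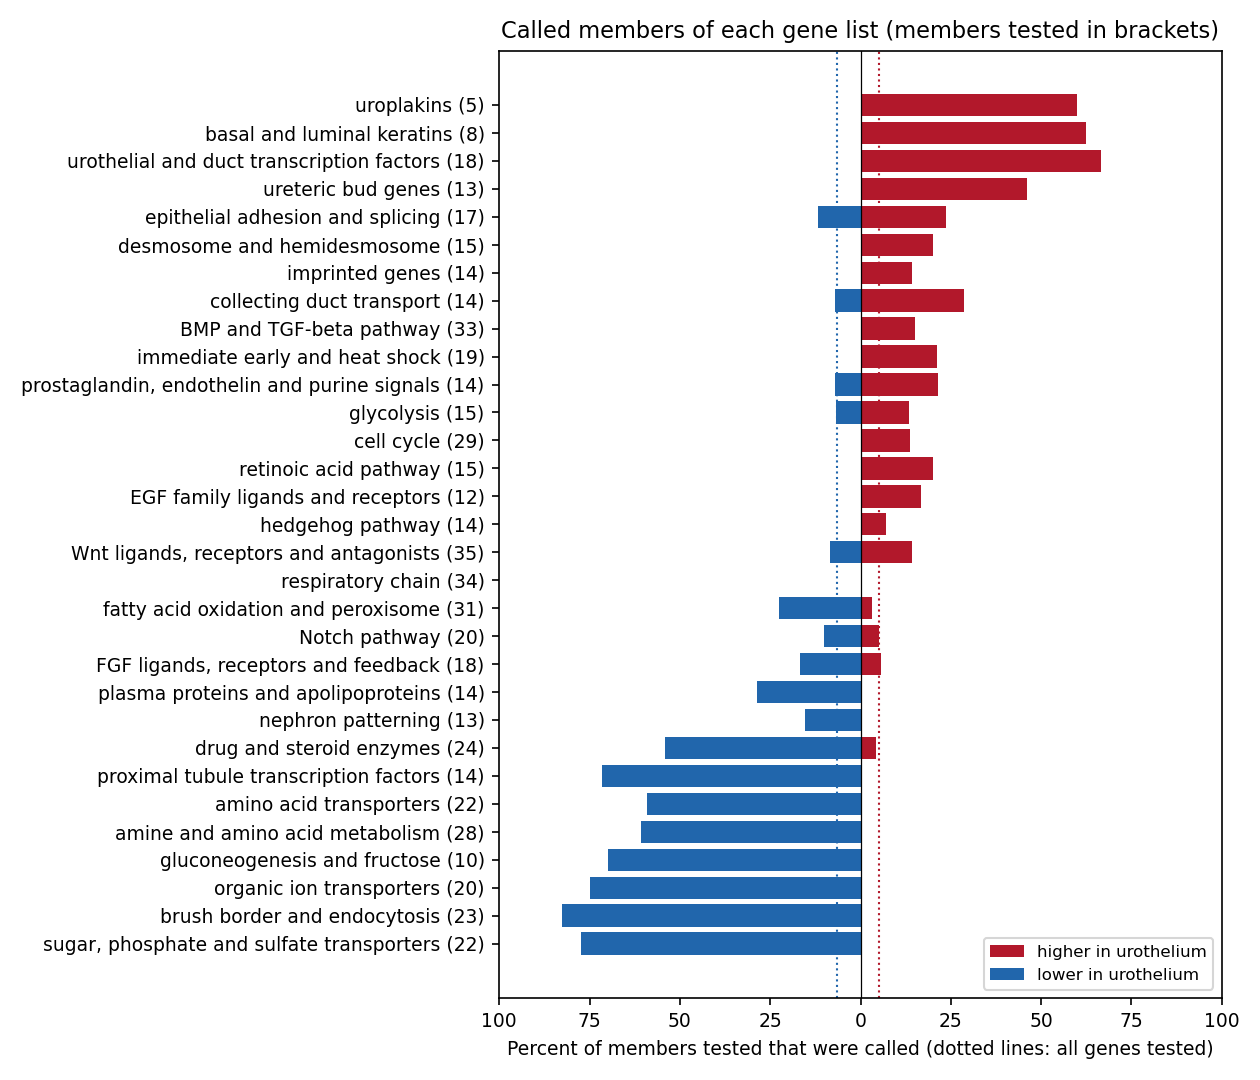
Percent of the tested members of each gene list called higher (red, right) or lower (blue, left) in urothelium, ordered by list median; dotted lines mark the shares over all 13614 genes (5.02% higher, 6.44% lower). Uroplakins (3 of 5 higher) and sugar, phosphate and sulfate transporters (17 of 22 lower) lie at the ends, and respiratory chain genes (0 of 34) show no bar.

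Promoters were read for the letters bound by factors of each tissue. RefSeq windows of GRCm38.p6, 250 bases before to 50 after a start, matched 10949 of the 13614 genes, among them 521 called higher and 712 called lower in urothelium. More than 1 window was read for 2212 genes with several starts, and a match in any window counted. The HNF4 letters CAAAGTCCA, on either strand, were found in 0 of the 521 genes called higher, in 11 of the 712 called lower (1.54%) and in 64 of all (0.585%). In the same order, the shares for the forkhead letters TGTTTAC were 3.45%, 4.49% and 3.20%, for AGATAA of GATA factors 7.87%, 9.13% and 7.94%, and for GGAATG of TEAD factors 19.2%, 15.0% and 14.7%. The HNF4 direct repeat of AGGTCA with 1 base between occurred in 0, 0 and 1 genes. The grainyhead palindrome AACCGGTT occurred in 1 gene called higher, 1 called lower and 30 of all. A match is a description of letters and not a bound site, and no test was made.

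Shown next are 3 promoter stretches, each the 250 bases before a RefSeq start on GRCm38.p6, 5′ to 3′ on the strand of the gene. The Slc3a1 stretch lies before the outermost start of the gene. The stretches of Foxa1 and Tspan8 precede starts inside the genes, which span chr12:57540628-57548029 and chr10:115816817-115849893. Slc3a1, lower in urothelium, is shown for the HNF4 letters. Foxa1 and Tspan8, both among the 12 highest in urothelium, are shown for the forkhead letters. Capitals mark the matched letters or their reverse complement.
Slc3a1, chr17:85028097-85028346 (+ strand): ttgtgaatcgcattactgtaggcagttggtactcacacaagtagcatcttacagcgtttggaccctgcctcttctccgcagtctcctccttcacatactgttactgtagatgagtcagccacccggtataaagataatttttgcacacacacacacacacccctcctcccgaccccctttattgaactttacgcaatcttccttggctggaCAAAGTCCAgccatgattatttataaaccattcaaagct
Foxa1, chr12:57546112-57546361 (- strand): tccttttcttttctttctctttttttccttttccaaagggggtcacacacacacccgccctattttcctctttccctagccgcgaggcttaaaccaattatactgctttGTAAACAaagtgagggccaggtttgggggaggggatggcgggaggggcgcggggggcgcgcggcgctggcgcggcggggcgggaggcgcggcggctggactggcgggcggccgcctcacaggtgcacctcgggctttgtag
Tspan8, chr10:115817034-115817283 (+ strand): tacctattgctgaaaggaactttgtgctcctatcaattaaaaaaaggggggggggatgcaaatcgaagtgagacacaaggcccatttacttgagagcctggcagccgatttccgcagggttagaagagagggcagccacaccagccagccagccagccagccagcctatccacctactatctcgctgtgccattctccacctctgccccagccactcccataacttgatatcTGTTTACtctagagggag
Each stretch holds 1 match to the letters it is shown for, and Slc3a1 also holds AGATAA, left in lower case.

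The collecting duct and the muscle place the differences among the 4 compartments. Of the 683 genes called higher in urothelium, the collecting duct mean lay nearer to urothelium than to early proximal tubule for 401 (58.7%) and the muscle mean for 408 (59.7%), with both nearer for 241 and neither for 115. For the 877 genes called lower, the collecting duct mean was nearer to urothelium for 677 (77.2%) and the muscle mean for 784 (89.4%), with neither for 42. Over all 13614 genes the shares were 53.4% and 62.5%. Since the called genes were chosen on the urothelium and early proximal tubule arrays, these shares are a description.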

How the data were processed

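The authors deposited a linear intensity for each of 45101 Affymetrix probe sets on 11 one-colour arrays, 1 per pool. The submitters' processing notes name GCOS and give no version. All arrays share a trimmed mean of 1500, and no further scaling was applied. Detection calls were not used here. Of the probe sets, 64 were controls, 34945 had 1 gene symbol, 932 had several and 9160 are unnamed here. Symbols of 34741 were checked by Entrez identifier against RefSeq (GRCm38.p6), and 0 changed.

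The deposited intensities were put on a log2 scale after adding 55, close to the 20th percentile of all values. One limma fit (limma 3.58.1, R 4.3.3) over all 11 arrays estimated 1 mean per compartment and a common spread (7 residual and 6.38 prior degrees of freedom). The fit was also run on simulated data with independent noise and no label batch, so that run does not bear on the batch. Compartments came from the labels; replicate numbers follow accession order. Named genes were the 12 highest and 12 lowest called genes without overlap, skipping clone names, up to 5 called members each way of every list and family (10 for transcription factors), and all uroplakins and defining markers. Of 88 named genes with several probe sets kept, 11 had one of opposite sign. Probe sets of the same sign also differed in size, as for Plet1 (0.59 to 5.50), Slc13a1 (-6.14 to -1.42), Hnf4a (-4.94 to -0.96) and Upk1b (5.05 to 7.00). The members and lists were chosen with earlier results of these data known. Promoters and plots used Python 3.11.15, pandas 2.3.3 and matplotlib 3.10.9. Alternatives varied the normalization, pseudocount, filter, probe set choice, variance model, label batch and arrays included. A gene list here is described by counts and medians, with no set test. Some promoter motifs that were searched are not reported here.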

Additional observations from a re-analysis of the deposited data

How the results depend on the processing

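Besides the settings given next, the count of 1560 called genes (683 higher, 877 lower) ran from 1252 without x, s and a probe sets to 1923 with a pseudocount of 190, and was 1496 with the label batch as a random block. With the label batch as a fixed block it was 24 (11 higher, 13 lower), with 1321 genes at an unadjusted p under 0.05, and St14 alone of 204 named called genes reversed, to -0.22. Leaving out the 3 arrays of label batch 3, an alternative chosen after seeing the data that leaves 1 early proximal tubule array assumed to vary like the others, gave 253 (135 higher, 118 lower). Leaving out 1 array at a time gave 899 to 1562 called, 395 to 686 higher and 504 to 891 lower. The cause of these changes was not tested, beyond the fewer arrays and degrees of freedom (4 with the block, 7 without). No paired analysis was possible because the replicate numbers only follow accession order and name the pools. Signal near background limits the folds of genes below the constant of 55, and 3 pools a side limit the rest.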

Other observations

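Xist, the X-inactivation transcript, was chosen after its values were seen. Its signal was 418, 101305 and 244 in the urothelium pools, against 141371, 90909 and 165102 in the early proximal tubule pools. The groups overlapped, and its log2 fold change of -5.73 ± 2.37 (SE) was not called (adjusted p = 0.14 by limma). The labels list sex as unknown. Of 438 genes tested on the X chromosome, 31 were called higher and 27 lower in urothelium. Over all 13614 genes, 683 (5.02%) were called higher and 877 (6.44%) lower. The X chromosome count called lower lies near that share, and the count called higher lies somewhat above it. Of 6 genes tested on the Y chromosome, 0 were called by limma.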
